A study of Arabidopsis thaliana with 15 samples.

Results

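Cytochromes P450 and glutathione transferases are the enzyme families with which plant cells first modify and then conjugate reactive or foreign molecules, and 38 of their genes were followed here in leaves of Arabidopsis thaliana. Members were genes named CYP followed by a number, or GST or ATGST followed by a class letter, that have a probe set paired with no other gene. A gene with several such probe sets was represented by the one with the highest mean over all arrays. This naming rule found 42 of the 13356 genes with a probe set of their own. Of the 42, 24 are cytochromes P450, 14 are glutathione transferases and 4 are cyclophilins (CYP57, CYP59, CYP71 and SQN, also called CYP40). Cyclophilins are protein-folding enzymes that share only the letters of the name, so their values are given apart at the end. The gene table held 311 genes with such names, and those without a probe set of their own were not analysed here.

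The series covers 5 groups of 3 arrays, all of 3-week-old plants of the Landsberg erecta accession, which grew on compost at 21 °C and were lit without a break by white light at 25 µmol m-2 s-1. The groups are hy5-1 mutant plants after UV-B, uvr8-1 mutant plants after UV-B or white light, and wildtype plants after UV-B or white light. UV-B exposure was 3 µmol m-2 s-1 for 4 h, and white light plants stayed in white light. UVR8 is the receptor protein that absorbs UV-B, and HY5, a transcription factor of the bZIP class, acts downstream of it. Each gene is represented by 1 mutant allele, and neither has a probe set in the annotation used here, so their own transcripts were not read. The design has no hy5-1 plants in white light, so a UV-B difference of hy5-1 cannot be computed, and the hy5-1 values show only its level under UV-B.

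P450s are haem enzymes that insert oxygen into a substrate with electrons passed on from NADPH. In plants they make pigments, hormones and defence compounds and also oxidise toxins. Glutathione transferases attach the tripeptide glutathione to electrophilic molecules, which can then be moved into the vacuole. The tau (GSTU) and phi (GSTF) classes are the large plant classes, and many tau genes are known to be switched on by xenobiotics and oxidised lipids. Lambda class enzymes (GSTL) act as glutathione-dependent reductases instead. Of the P450 members 19 belong to the CYP71B subfamily, several of which lie side by side in the genome, and 5 to other families. Of the transferases 11 are of the tau, 2 of the phi and 1 of the lambda class.

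All values are log2 units made by the authors with RMA, a method that summarises all probes for one transcript on each array. Array medians lay between 4.31 and 4.40. A difference of 1 is 2-fold. Differences are given with their standard error from a limma fit to all 15 arrays, and a gene was called when its p-value, adjusted by the Benjamini-Hochberg method over 22746 probe sets, was under 0.05. Intervals are 95% confidence intervals from the same fit. The files carry no detection calls, so a mean under 3.74, the upper limit of the dimmest 40% of probe sets, is termed dim here. By this measure 14 of the 38 members were dim in all 5 groups. Over the 38 genes, single array values ran from 2.31 to 10.46. Identical values in several arrays of 1 probe set occurred in 11 of the 38 members and in 26.1% of all probe sets, and they make some standard deviations very small.

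Leaf identity and RNA condition were read from control genes. Of 9 listed leaf markers 3 were measured, and the Rubisco activase gene RCA had group means between 12.25 and 12.47. The other 2 fell under UV-B in both genotypes. The antenna gene LHCB4.2 differed by −1.48 ± 0.29 in uvr8-1 and −2.34 ± 0.29 in wildtype, and the ATP synthase gene ATPC1 by −0.59 ± 0.12 in both. Of 6 root markers 2 were measured: AT5G17820 had group means between 3.02 and 3.25, while PYK10, a beta-glucosidase gene, had means between 6.88 and 8.17 and fell under UV-B in uvr8-1, by 0.76 ± 0.23. The part of these markers in the results below was not tested. The flower and seed markers had no probe set of their own in this annotation. The 3' minus 5' difference averaged over 6 pairs of control probe sets, which rises where the 5' ends are represented less, was 2.03 ± 0.33 in hy5-1 after UV-B. It was 1.21 ± 0.03 after UV-B and 1.39 ± 0.22 in white light for uvr8-1, and 1.19 ± 0.04 after UV-B and 1.05 ± 0.07 in white light for wildtype (SD, n = 3 each). The hy5-1 arrays, from 1.66 to 2.29, lay apart from all UV-B arrays of the other genotypes.

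**Figure D1:**
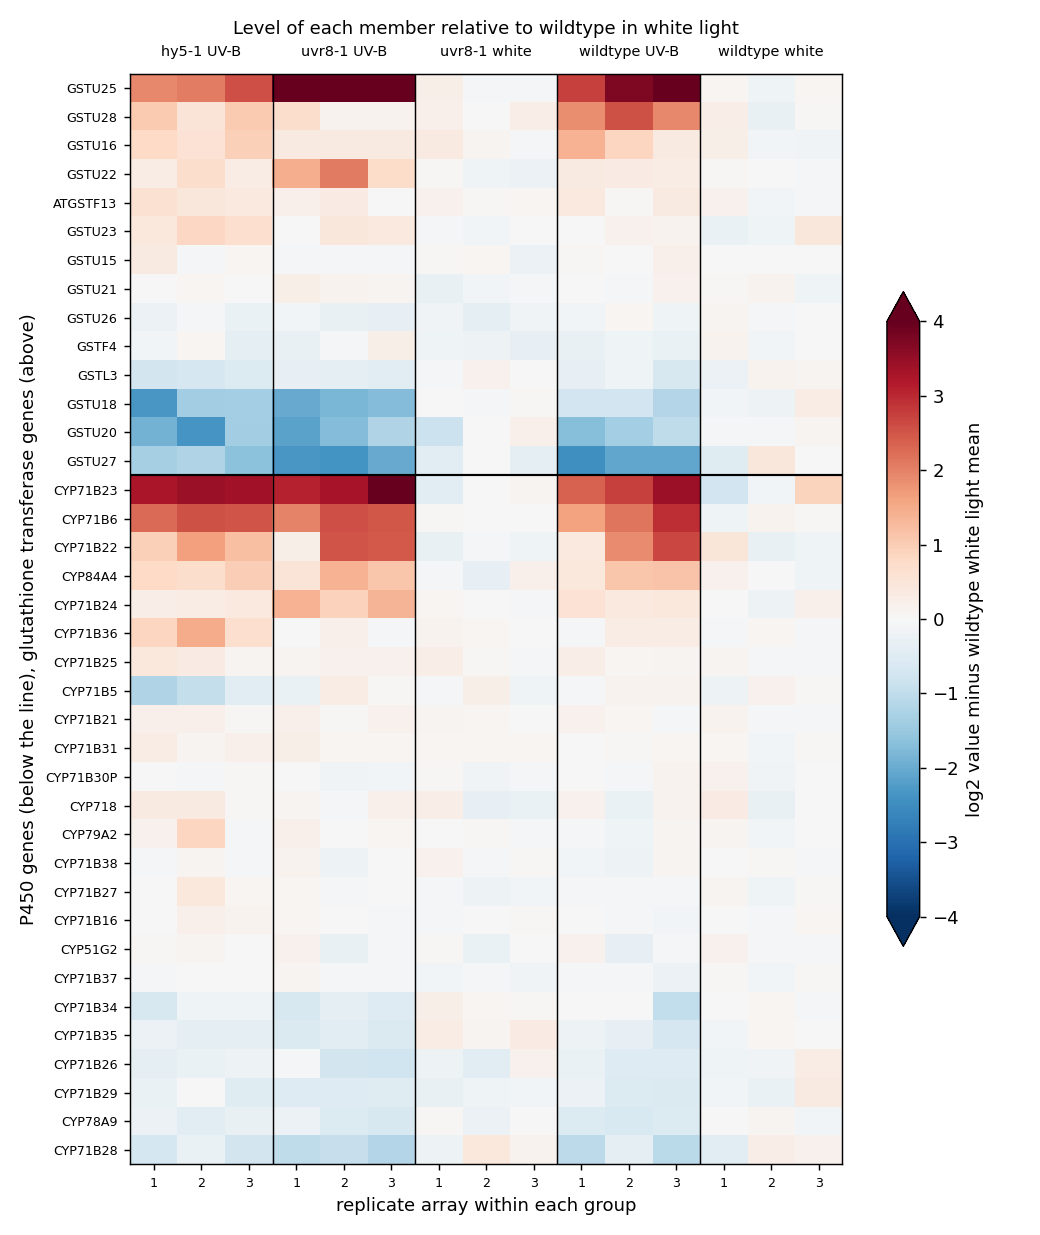
Log2 value of each of the 38 genes (rows) in each of the 15 arrays (columns, grouped by genotype and light) minus the gene's mean in wildtype in white light; the colour scale ends at 4 and -4. GSTU25, CYP71B23 and CYP71B6 are higher in all UV-B arrays than in any white light array, GSTU27, GSTU18 and GSTU20 are lower, and most other rows stay pale.

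The comparison of UV-B with white light in wildtype asked which of these genes UV-B changes. In wildtype 8 of the 38 genes rose and 8 fell, against 12.2% and 18.3% of all probe sets (16 in either direction, against 30.5%). The UV-B and white light arrays did not overlap in 15 of the 38, against 40.5% of all probe sets. Among transferases 3 rose (GSTU25, GSTU28 and GSTU16) and 4 fell (GSTU27, GSTU20, GSTU18 and GSTL3). Among P450s 5 rose (CYP71B23, CYP71B6, CYP71B22, CYP84A4 and CYP71B24) and 4 fell (CYP71B28, CYP78A9, CYP71B29 and CYP71B35). The median difference of the 38 genes was 0.02, beside −0.03 over the 13356 genes. In leaf RNA, fewer cells of a type and less transcript per cell cannot be told apart. The submitters call the arrays biological replicates without saying which plants were pooled, and the p-values measure only the spread between them.

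The same comparison in uvr8-1 asked which changes occur without the photoreceptor. There, too, 8 genes rose and 8 fell, against 12.9% and 19% of all probe sets (16 in either direction, against 31.9%). The arrays of the light conditions did not overlap in 20 of the 38, against 40.8%. Of the genes that rose, 6 were called in both genotypes, which is 6 of the 8 in each. Of the genes that fell, 7 were called in both, which is 7 of the 8 in each. Over all probe sets, the shared rises were 74.4% of those in uvr8-1 and 78.7% of those in wildtype, and the shared falls were 72.7% of those in uvr8-1 and 75.4% of those in wildtype. All 5 P450s that rose in wildtype also rose in uvr8-1. Among the transferases 4 of 4 falls were shared, but only 1 of 3 rises, that of GSTU25.

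**Figure D2:**
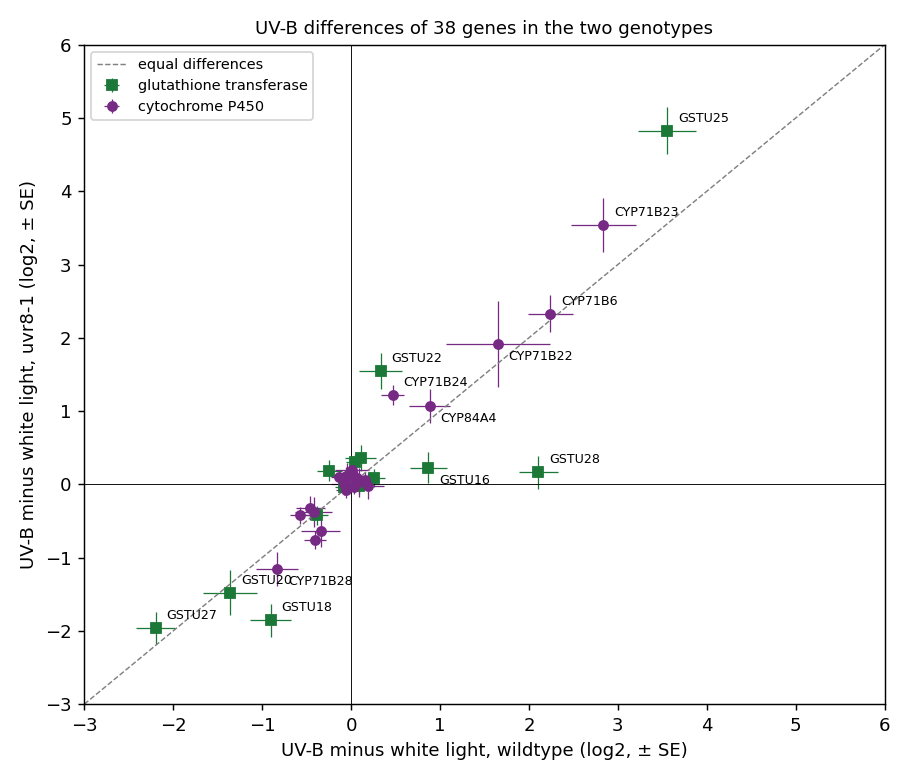
UV-B minus white light difference (log2, bars are standard errors) in wildtype on the horizontal axis and in uvr8-1 on the vertical axis for the 38 genes; the dashed line marks equal differences. GSTU28 lies far below the line, at 0.16 in uvr8-1 and 2.11 in wildtype, while GSTU25 and GSTU22 lie above it.

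GSTU25, a tau class transferase, had the largest rise of all members in both genotypes. In uvr8-1 its values were 7.49, 8.43 and 7.57 under UV-B and 3.20, 2.89 and 2.91 in white light. In wildtype they were 5.69, 6.68 and 7.15 under UV-B and 3.04, 2.79 and 3.03 in white light. The UV-B arrays lay well above the white light arrays in each genotype. The difference was 4.83 ± 0.33 in uvr8-1 (28.4-fold, adjusted p = 2.47e-07) and 3.55 ± 0.33 in wildtype (11.7-fold, adjusted p = 3.29e-06). White light means were dim, so these fold changes start from values near background. The hy5-1 plants had 4.89, 5.01 and 5.53 under UV-B, above both sets of white light arrays and below every UV-B array of the other genotypes. All 3 uvr8-1 UV-B arrays exceeded the 3 wildtype UV-B arrays, a difference of 1.32 ± 0.33 that was not called (adjusted p = 0.0537). With replicate number as a block it was called (adjusted p = 0.0453), as it was with an intensity trend (0.0422) or quantile normalisation (0.0362). It was also called without the dimmest 40% of probe sets (0.0332) or without wildtype UV-B replicate 3 (0.0107), but in no other alternative fit. The difference between the UV-B responses of the genotypes, 1.27 ± 0.46, was not called (adjusted p = 0.469).

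GSTU26 directly adjoins GSTU25 in the genome. It showed none of this rise, with differences of −0.03 ± 0.11 in uvr8-1 and −0.07 ± 0.11 in wildtype, and it was dim in every group.

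GSTU28, also of the tau class, was the 1 member whose UV-B response was called different between the genotypes. It had 4.56, 4.00 and 4.00 in uvr8-1 under UV-B and 4.07, 3.87 and 4.14 in uvr8-1 in white light, which overlapped. In wildtype it had 5.73, 6.39 and 5.77 under UV-B and 4.12, 3.57 and 3.89 in white light, which did not overlap. In uvr8-1 its difference was 0.16 ± 0.22, with a 95% interval from −0.31 to 0.64 (adjusted p = 0.686). In wildtype GSTU28 rose by 2.11 ± 0.22 (4.30-fold, adjusted p = 1.01e-05). The difference of these responses, uvr8-1 minus wildtype, was −1.94 ± 0.31 (adjusted p = 0.00692), and it stayed called in each of the 20 alternative fits. Among these, the mean of a gene's probe sets left the values of the 38 genes unchanged, since each has only 1 probe set of its own. Over all probe sets 0.831% had a response called lower in uvr8-1 and 0.0264% one called higher (0.857% in either direction). Among the 38 genes the counts were 1 and 0. In this test 5 of the 38 had an unadjusted p under 0.05, against 1609 of all 22746 probe sets.

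The level of GSTU28 under UV-B was lower in both mutants than in wildtype. The hy5-1 arrays had 4.90, 4.38 and 4.92, all below the wildtype UV-B arrays. The mean was 4.73 ± 0.31 in hy5-1, 4.19 ± 0.32 in uvr8-1 and 5.97 ± 0.37 in wildtype (SD, n = 3 each). The uvr8-1 difference from wildtype was −1.78 ± 0.22 (adjusted p = 0.000346). The hy5-1 difference from wildtype was −1.24 ± 0.22 (adjusted p = 0.00648). With the 3' minus 5' index as a covariate this hy5-1 difference was −1.05 ± 0.47 and not called (adjusted p = 0.88). Between the mutants the difference was 0.54 ± 0.22 (hy5-1 minus uvr8-1, adjusted p = 0.118), which was not called.

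GSTU22 and the P450 gene CYP71B24 were called higher in uvr8-1 than in wildtype under UV-B. GSTU22 had 4.68, 5.32 and 3.95 in uvr8-1 under UV-B, against 3.26, 3.06 and 2.98 in uvr8-1 in white light. Wildtype plants had 3.59, 3.56 and 3.54 under UV-B and 3.26, 3.25 and 3.17 in white light. The rise was 1.55 ± 0.24 in uvr8-1 (adjusted p = 0.000293), while the wildtype difference of 0.33 ± 0.24 was not called (adjusted p = 0.374, or 0.0334 in a fit of the compared groups only). Under UV-B the 3 uvr8-1 arrays lay above the wildtype arrays, by 1.09 ± 0.24 (adjusted p = 0.0331). That call ended without any 1 of the 3 wildtype UV-B arrays or without uvr8-1 UV-B replicate 1 or 2, with adjusted p up to 0.286 in a fit of the compared groups only. The difference of responses, 1.21 ± 0.35, was not called (adjusted p = 0.216), but it was without uvr8-1 UV-B replicate 3, the lowest of its group (1.56 ± 0.23, adjusted p = 0.00753).

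CYP71B24 had 4.07, 3.61 and 4.04 in uvr8-1 under UV-B and 2.76, 2.65 and 2.64 in uvr8-1 in white light. Wildtype had 3.26, 3.07 and 3.10 under UV-B and 2.70, 2.46 and 2.87 in white light. In each genotype all UV-B arrays were above all white light arrays. The rise was 1.22 ± 0.13 in uvr8-1 (adjusted p = 1.4e-05) and 0.47 ± 0.13 in wildtype (adjusted p = 0.0156). The wildtype call ended without wildtype white light replicate 2 (adjusted p up to 0.0781) or UV-B replicate 1. Under UV-B, uvr8-1 was higher by 0.76 ± 0.13 (adjusted p = 0.00544, or 0.109 in a fit of the compared groups only). The difference of responses, 0.75 ± 0.19, was not called (adjusted p = 0.113), but it was without uvr8-1 UV-B replicate 2 (adjusted p = 0.0235). In wildtype and in white light the means of both genes were dim.

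GSTU16 rose in wildtype and did not pass in uvr8-1. It had 5.78, 5.57 and 5.93 in hy5-1 under UV-B. All 3 uvr8-1 arrays under UV-B, and wildtype UV-B replicate 3, hold the identical value of 5.35. The uvr8-1 arrays in white light had 5.34, 5.10 and 4.93, a difference of 0.22 ± 0.21 (adjusted p = 0.516). Wildtype had 6.39, 5.84 and 5.35 under UV-B and 5.24, 4.88 and 4.86 in white light, a difference of 0.87 ± 0.21 (adjusted p = 0.00646, or 0.0522 in a fit of the compared groups only). The test of the difference between these responses, −0.64 ± 0.30, was not called (adjusted p = 0.706). GSTU15, which lies near GSTU16, was dim throughout and not called in any comparison. GSTU21 passed for a rise in uvr8-1 alone, by 0.31 ± 0.11 (adjusted p = 0.0398). It too was dim in all groups, its call ended in 5 of the 6 fits that leave out 1 array, and its difference of responses was 0.26 ± 0.15, not called.

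The transferases that fell under UV-B did so in both genotypes. GSTU27 had 6.47, 6.41 and 6.79 in uvr8-1 under UV-B, against 8.33, 8.80 and 8.40 in uvr8-1 in white light. In wildtype it had 6.36, 6.72 and 6.72 under UV-B and 8.32, 9.25 and 8.83 in white light. The groups lay far apart, with differences of −1.96 ± 0.22 in uvr8-1 (adjusted p = 1.64e-05) and −2.20 ± 0.22 in wildtype (adjusted p = 5.82e-06). GSTU20, whose product is known to interact with the jasmonate-conjugating enzyme FIN219, had 8.37, 7.91 and 8.86 in hy5-1 under UV-B. It had 8.12, 8.51 and 9.04 in uvr8-1 under UV-B and 9.39, 10.25 and 10.46 in white light. Wildtype plants had 8.57, 8.90 and 9.23 under UV-B and 10.23, 10.17 and 10.38 in white light. It fell by 1.48 ± 0.31 in uvr8-1 (adjusted p = 0.00213) and by 1.36 ± 0.31 in wildtype (adjusted p = 0.00401). Among the members, those nearest to GSTU20 along the chromosome are GSTU21, GSTU22 and GSTU23. GSTU23 was not called, with differences of 0.36 ± 0.18 in uvr8-1 and 0.11 ± 0.18 in wildtype.

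GSTU18 had 6.22, 6.40 and 6.50 in uvr8-1 under UV-B and 8.25, 8.16 and 8.28 in uvr8-1 in white light. In wildtype it had 7.48, 7.47 and 7.06 under UV-B and 8.15, 8.02 and 8.55 in white light. The mutant arrays under UV-B were the lower ones. GSTU18 fell by 1.86 ± 0.23 in uvr8-1 (adjusted p = 3.86e-05) and by 0.90 ± 0.23 in wildtype (adjusted p = 0.00803). Its level under UV-B was lower in uvr8-1 than in wildtype, a difference of −0.96 ± 0.23 (adjusted p = 0.0436). That call ended without wildtype UV-B replicate 1 or 2 or without any 1 of the uvr8-1 UV-B arrays (adjusted p up to 0.173). The difference of responses, −0.95 ± 0.32, was not called (adjusted p = 0.392). GSTL3 of the lambda class fell by 0.42 ± 0.13 in uvr8-1 (adjusted p = 0.0225) and by 0.38 ± 0.13 in wildtype (adjusted p = 0.0386). The uvr8-1 call of GSTL3 ended without white light replicate 2 or UV-B replicate 2 or 3 (adjusted p up to 0.0909), and the wildtype call without white light replicate 2 or 3 or UV-B replicate 1 or 3 (up to 0.179).

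**Figure D3:**
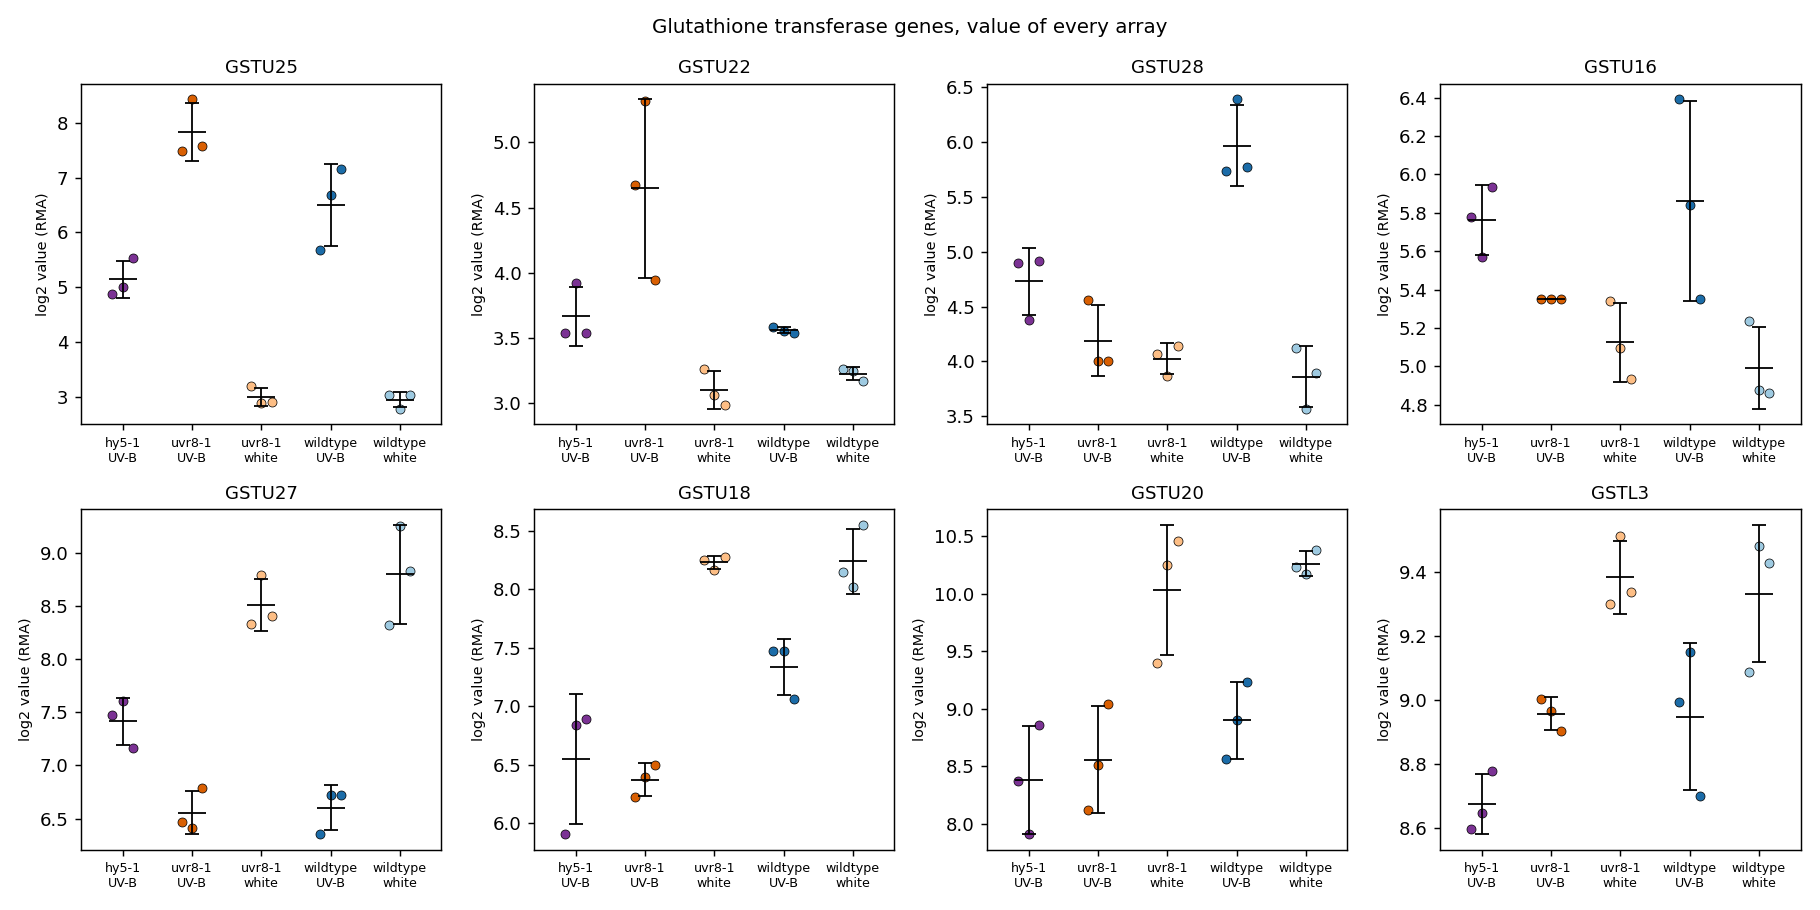
Log2 values of 8 glutathione transferase genes in every array, by genotype and light; bars are the mean and SD of 3 arrays and each panel has its own scale. GSTU28 is high in wildtype under UV-B, GSTU22 in uvr8-1 under UV-B, and GSTU27 is low in the UV-B arrays of uvr8-1 and wildtype, with hy5-1 between these and the white light arrays.

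Among P450s outside the CYP71B subfamily, CYP84A4, an enzyme of arabidopyrone synthesis, rose in both genotypes. It had 5.17, 5.09 and 5.37 in hy5-1 under UV-B. Its values in uvr8-1 were 4.89, 5.76 and 5.48 under UV-B and 4.31, 4.05 and 4.56 in white light. In wildtype they were 4.78, 5.48 and 5.51 under UV-B and 4.56, 4.35 and 4.22 in white light. Replicate 1 had the smallest UV-B value in both. The rise was 1.07 ± 0.23 in uvr8-1 (adjusted p = 0.0029) and 0.88 ± 0.23 in wildtype (adjusted p = 0.0103). CYP78A9, known for a role in fruit and seed size, fell by 0.42 ± 0.12 in uvr8-1 (adjusted p = 0.0137) and by 0.57 ± 0.12 in wildtype (adjusted p = 0.00218). The uvr8-1 call of CYP78A9 ended without white light replicate 1 or 3 or UV-B replicate 2 or 3 (adjusted p up to 0.0673). CYP79A2, which converts phenylalanine on the way to benzyl glucosinolate, CYP718 and the pseudogene CYP51G2 were not called in any comparison.

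CYP71B6, an enzyme that converts indole-3-acetonitrile, rose in both genotypes. The hy5-1 plants had 9.37, 9.67 and 9.64 under UV-B, within the range of the other UV-B arrays. In uvr8-1 it had 9.11, 9.69 and 9.59 under UV-B and 7.17, 7.14 and 7.10 in white light. Wildtype plants had 8.74, 9.27 and 10.06 under UV-B and 6.95, 7.25 and 7.15 in white light. The rise was 2.33 ± 0.25 in uvr8-1 (5.02-fold, adjusted p = 1.49e-05) and 2.24 ± 0.25 in wildtype (4.73-fold, adjusted p = 1.98e-05). The difference of responses was 0.09 ± 0.36, with a 95% interval from −0.69 to 0.86.

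CYP71B23 had the largest rise of the P450s. Its values in hy5-1 under UV-B were 8.34, 8.53 and 8.44. In uvr8-1 they were 8.14, 8.36 and 9.05 under UV-B and 4.66, 5.09 and 5.17 in white light. In wildtype they were 7.44, 7.81 and 8.48 under UV-B and 4.30, 4.96 and 5.97 in white light. Every UV-B array, whatever its genotype, lay above every white light array. The rise was 3.54 ± 0.37 in uvr8-1 (11.6-fold, adjusted p = 1.03e-05) and 2.84 ± 0.37 in wildtype (7.15-fold, adjusted p = 6.28e-05).

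CYP71B22 lies directly beside CYP71B23. The hy5-1 arrays under UV-B had 5.10, 5.81 and 5.36. It had 4.38, 6.67 and 6.61 in uvr8-1 under UV-B and 3.84, 4.10 and 3.97 in white light. In wildtype it had 4.55, 6.04 and 6.82 under UV-B and 4.62, 3.86 and 3.97 in white light. Replicate 1 under UV-B stayed low in both genotypes, and in wildtype it overlapped the white light arrays. The differences, 1.91 ± 0.59 in uvr8-1 (adjusted p = 0.0231) and 1.65 ± 0.59 in wildtype (adjusted p = 0.0486), had the largest errors of all members. The uvr8-1 call ended without white light replicate 1 or 3 or UV-B replicate 2 or 3 (adjusted p up to 0.105). The wildtype call ended without any 1 of the white light arrays and without UV-B replicate 2 or 3 (adjusted p up to 0.211). Without UV-B replicate 1 the rise was 2.67 in uvr8-1 and 2.28 in wildtype.

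These genes belong to a run on chromosome 3 in which 11 of the CYP71B members lie within a stretch of 25 genes. The called genes of the run moved in both directions. In uvr8-1 CYP71B22, CYP71B23 and CYP71B24 rose, and CYP71B34 (−0.63 ± 0.22, adjusted p = 0.0414) and CYP71B35 (−0.76 ± 0.12, adjusted p = 0.000368) fell. In wildtype the same 3 genes rose, CYP71B35 fell (−0.40 ± 0.12, adjusted p = 0.0252) and 7 were not called. Over all probe sets 12.9% rose and 19% fell in uvr8-1, and 12.2% and 18.3% in wildtype. The falls of CYP71B35 in wildtype and of CYP71B34 in uvr8-1 rest on few arrays. CYP71B35 lost its wildtype call without white light replicate 2 or 3 or UV-B replicate 3 (adjusted p up to 0.121), and CYP71B34 lost its call without any 1 of the 6 arrays (up to 0.114). The other 6 genes of the run, CYP71B16, CYP71B21, CYP71B25, CYP71B26, CYP71B36 and CYP71B37, were not called for UV-B in either genotype. Of these, CYP71B16, CYP71B21, CYP71B25 and CYP71B37 were dim in all groups. Near relatives in this subfamily can share sequence, and cross-hybridisation between them was not tested.

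**Figure D4:**
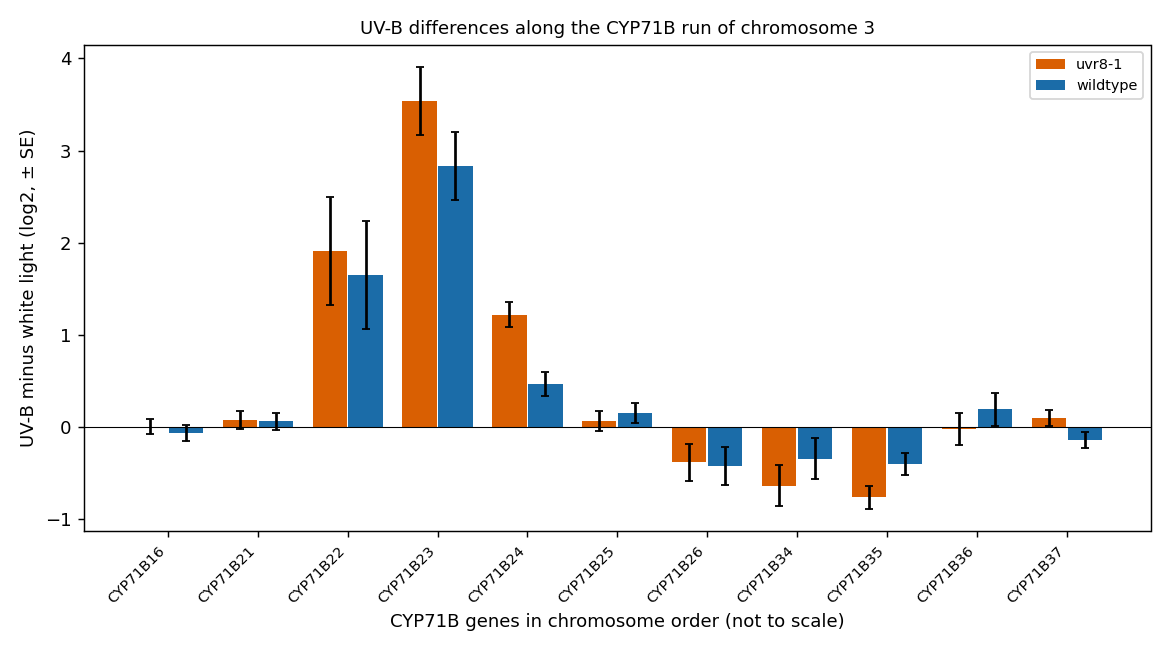
UV-B minus white light difference (log2, bars are standard errors) of 11 CYP71B genes in their order along chromosome 3, in uvr8-1 and in wildtype. CYP71B22, CYP71B23 and CYP71B24 are the genes called higher, and the others lie near 0 or below it.

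On chromosome 1 the adjoining genes CYP71B28 and CYP71B29 lay lower under UV-B. CYP71B28 had 5.26, 5.68 and 5.22 in hy5-1 under UV-B. It had 4.92, 5.03 and 4.79 in uvr8-1 under UV-B and 5.75, 6.36 and 6.09 in white light, which did not overlap. Wildtype plants had 4.89, 5.60 and 4.86 under UV-B and 5.51, 6.20 and 6.13 in white light, which did. CYP71B28 fell by 1.16 ± 0.23 in uvr8-1 (adjusted p = 0.00179) and by 0.83 ± 0.23 in wildtype (adjusted p = 0.0154). The wildtype call ended without white light replicate 2 or 3 or UV-B replicate 1 or 3 (adjusted p up to 0.0696). CYP71B29 was at −0.33 ± 0.16 in uvr8-1, which was not called (adjusted p = 0.161), and at −0.46 ± 0.16 in wildtype (adjusted p = 0.0498). Its wildtype call was lost with replicate number as a block (adjusted p = 0.0634) and without white light replicate 1 or 3 or UV-B replicate 2 or 3 (up to 0.232).

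**Figure D5:**
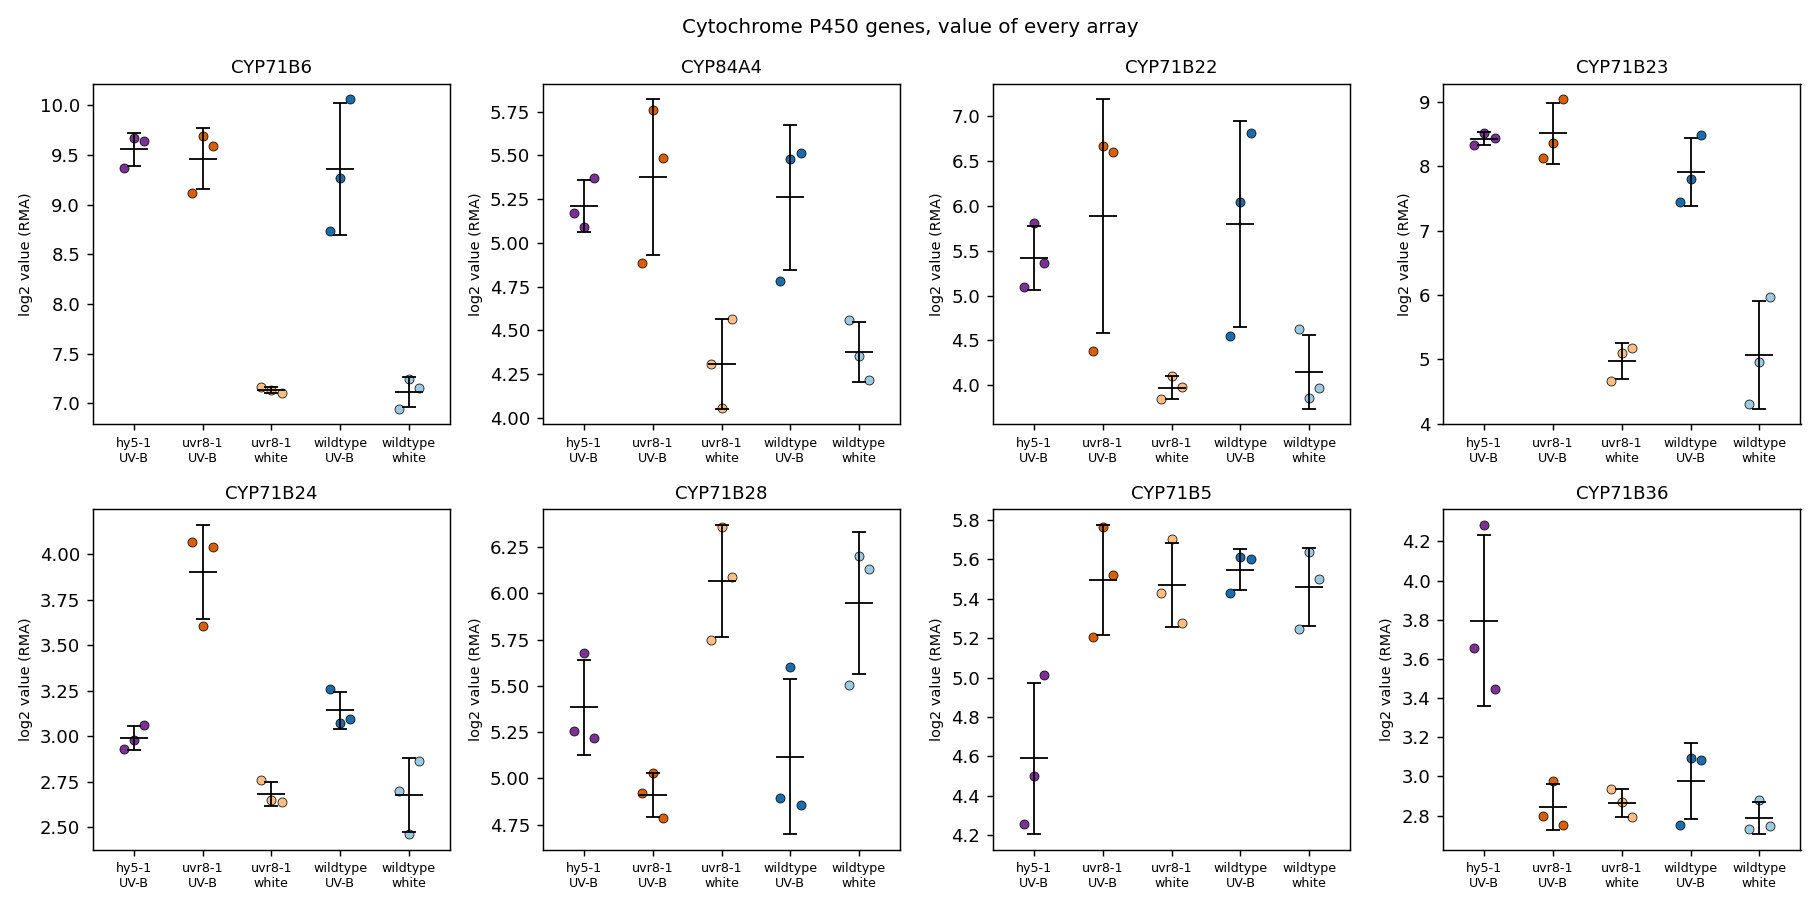
Log2 values of 8 cytochrome P450 genes in every array, by genotype and light; bars are the mean and SD of 3 arrays and each panel has its own scale. CYP71B6 and CYP71B23 are high in all UV-B arrays, CYP71B24 is highest in uvr8-1 under UV-B, and CYP71B5 and CYP71B36 stand apart in hy5-1.

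The comparison of uvr8-1 with wildtype under UV-B asked where levels depend on the photoreceptor. Of the 38 genes 2 were higher (GSTU22 and CYP71B24) and 2 lower (GSTU28 and GSTU18) in uvr8-1, against 0.422% and 1.99% of all probe sets (4 in either direction, against 2.41%). Arrays of the genotypes did not overlap in 7 of the 38, against 15% of all probe sets. In white light none of the 38 was called by limma, against 0.0132% of all probe sets called higher and 0.0044% called lower (0.0176% in either direction). None of the 38 had an unadjusted p under 0.05 there, against 371 of all 22746 probe sets. The arrays did not overlap in 3 of the 38, against 6.1% of all probe sets. The largest white light difference among the 38 was −0.29 ± 0.22, that of GSTU27.

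The comparison of hy5-1 with wildtype under UV-B asked which levels depend on HY5. Of the 38 genes 2 were higher in hy5-1 (CYP71B36 and GSTU27) and 3 lower (GSTU25, GSTU28 and CYP71B5), against 2.77% and 4.81% of all probe sets (5 in either direction, against 7.59%). The arrays did not overlap in 12 of the 38, against 29.2% of all probe sets. Against uvr8-1 under UV-B, 2 were higher in hy5-1 (CYP71B36 and GSTU27) and 4 lower (GSTU25, CYP71B5, CYP71B24 and GSTU22), against 5.37% and 8.47% (6 in either direction, against 13.8%). Here 13 of the 38 did not overlap, against 33.5%. Both comparisons share the hy5-1 arrays. These arrays had the less even control transcripts described above, and since this index and the genotype go together, the 2 cannot be told apart. With the index as a covariate, 0 of these 11 calls remained. Over all 22746 probe sets that fit called 0 higher and 3 lower in hy5-1 than in wildtype, and 7 and 2 than in uvr8-1. All 11 differences kept their sign. Their sizes moved unequally. From wildtype, GSTU25 was at −1.02 ± 0.69, GSTU28 at −1.05 ± 0.47 and GSTU27 at 0.80 ± 0.46. The differences of CYP71B5 and CYP71B36 became much smaller, as given below with these genes.

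GSTU25 in hy5-1 was below wildtype, a difference of −1.36 ± 0.33 (adjusted p = 0.0246), and below uvr8-1 (−2.68 ± 0.33, adjusted p = 0.000429). The difference from wildtype was not called without wildtype UV-B replicate 2 or 3 or without hy5-1 replicate 1 or 2. GSTU27 had 7.48, 7.60 and 7.17 in hy5-1, above all UV-B arrays of the other genotypes. It was higher than in wildtype by 0.81 ± 0.22 (adjusted p = 0.0386) and than in uvr8-1 by 0.86 ± 0.22 (adjusted p = 0.0202). The first of these calls ended without any 1 of the wildtype arrays or hy5-1 replicate 1 or 2, the second without replicate 1 or 2 of either mutant. GSTU22 had 3.54, 3.92 and 3.54 in hy5-1, below uvr8-1 (−0.98 ± 0.24, adjusted p = 0.0196), and this call ended without uvr8-1 replicate 2 or hy5-1 replicate 1. CYP71B24 had 2.93, 2.98 and 3.06 in hy5-1, a difference of −0.91 ± 0.13 from uvr8-1 (adjusted p = 0.00118). GSTU18, with 5.91, 6.84 and 6.90 in hy5-1, differed from wildtype under UV-B by −0.79 ± 0.23, which was not called (adjusted p = 0.0528).

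CYP71B5 and CYP71B36 had no called UV-B difference in either genotype and differed in hy5-1. CYP71B5 had 4.26, 4.50 and 5.01 in hy5-1 under UV-B, against 5.21, 5.76 and 5.52 in uvr8-1 and 5.43, 5.61 and 5.60 in wildtype under UV-B. In white light it had 5.43, 5.70 and 5.28 in uvr8-1 and 5.25, 5.63 and 5.50 in wildtype. The hy5-1 arrays were the lowest of the 15. The difference was −0.96 ± 0.19 from wildtype (adjusted p = 0.0119) and −0.91 ± 0.19 from uvr8-1 (adjusted p = 0.00921). The call against wildtype ended without hy5-1 replicate 1 or 2, and that against uvr8-1 in a fit of the compared groups only (adjusted p = 0.0503). With the 3' minus 5' index as a covariate the differences of CYP71B5 shrank to −0.29 ± 0.35 from wildtype and −0.25 ± 0.34 from uvr8-1. CYP71B36 had 3.66, 4.28 and 3.44 in hy5-1 under UV-B, above all other arrays. It had 2.80, 2.98 and 2.75 under UV-B and 2.93, 2.87 and 2.79 in white light in uvr8-1. In wildtype the values were 2.75, 3.10 and 3.09 under UV-B and 2.73, 2.88 and 2.75 in white light, so both genotypes were dim. It was higher than in wildtype by 0.82 ± 0.17 (adjusted p = 0.0154, or 0.0885 in a fit of the compared groups only) and than in uvr8-1 by 0.95 ± 0.17 (adjusted p = 0.00436). With the index as a covariate these differences of CYP71B36 were 0.13 ± 0.30 and 0.28 ± 0.29, and for both genes the adjusted p lay between 0.929 and 0.985. CYP71B30P, which directly adjoins CYP71B5, and CYP71B31, which lies near both, were dim and not called.

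In all, 17 of the 38 genes were not called in any of the 7 comparisons. Of these, 13 were dim in all groups, and the differences of all 17 lay between −0.42 and 0.53. The shares of all probe sets called in none of the 7 comparisons, or dim in all groups, were not counted. Those not yet named are ATGSTF13 and GSTF4 of the phi class, CYP71B38, and CYP71B27, which like CYP51G2 is annotated as a pseudogene. Among the 17, GSTU23 was called higher in hy5-1 than in wildtype with replicate number as a block (0.53 ± 0.15, adjusted p = 0.0393). ATGSTF13 was called higher under UV-B in wildtype without UV-B replicate 2 (adjusted p = 0.0469), and CYP71B26 lower under UV-B in uvr8-1 without UV-B replicate 1 (adjusted p = 0.0188). A gene that stays near background may still change below what the array can show.

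Few other genes listed for the same detoxification chain had a probe set of their own. Of 15 listed genes of glutathione synthesis and recycling 2 were measured. GR1, a glutathione reductase, rose by 1.40 ± 0.26 in uvr8-1 (adjusted p = 0.000916) and by 2.67 ± 0.26 in wildtype (adjusted p = 5.04e-06). The difference of these responses, −1.27 ± 0.36, was not called (adjusted p = 0.224). Under UV-B the level of GR1 was lower in uvr8-1 than in wildtype, with a difference of −1.13 ± 0.26 (adjusted p = 0.0359). GR2, the plastid and mitochondrial reductase, fell by 0.64 ± 0.23 in uvr8-1 (adjusted p = 0.0436) and was at −0.49 ± 0.23 in wildtype, which was not called. Of 11 genes listed for conjugate transport and breakdown 2 were measured, AT2G04050 (DTX3) and AT2G04070 (DTX4). Both rose in both genotypes, AT2G04070 by 5.07 ± 0.33 in uvr8-1 and by 4.79 ± 0.33 in wildtype. Whether their products carry glutathione conjugates was not tested. Of 13 listed regulators and targets of the TGA detoxification pathway 3 were measured, all of them glycosyltransferase genes, and all rose in both genotypes. UGT73B4 rose by 5.54 ± 0.37 in uvr8-1 and by 5.07 ± 0.37 in wildtype, and UGT73B5 by 6.01 ± 0.39 in uvr8-1 and by 5.85 ± 0.39 in wildtype. UGT73C1 rose by 3.08 ± 0.20 in uvr8-1 and by 4.73 ± 0.20 in wildtype, and this difference of responses was called (−1.64 ± 0.28, adjusted p = 0.00994). Under UV-B the level of UGT73C1 was lower in uvr8-1 than in wildtype (−1.48 ± 0.20, adjusted p = 0.000662). None of the 7 listed electron donors of P450s had a probe set of its own.

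Among the 4 cyclophilins, CYP59 and SQN were called in some comparisons. The alternative fits were read only for the 38 P450 and transferase genes. CYP59 had 3.46, 3.60 and 4.14 in hy5-1 under UV-B, 4.66, 4.48 and 4.51 in uvr8-1 under UV-B and 4.37, 4.37 and 4.24 in wildtype under UV-B. In white light it had 4.53, 4.33 and 4.59 in uvr8-1 and 4.38, 4.42 and 4.42 in wildtype. It was lower in hy5-1 than in wildtype (−0.60 ± 0.14, adjusted p = 0.0266) and than in uvr8-1 (−0.82 ± 0.14, adjusted p = 0.00368). Both calls rest on the hy5-1 arrays, in which the 3' minus 5' index and the genotype cannot be told apart. SQN fell by 0.34 ± 0.12 in uvr8-1 under UV-B (adjusted p = 0.0384), read from the probe set with the higher mean of its 2. CYP57 and CYP71 were not called in any comparison.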

How the data were processed

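Leaf RNA of 15 samples was hybridised to 1-colour ATH1 arrays. RMA is named in the submitters' processing notes as the method of the authors, whose deposited values are on the log2 scale; its version and options are not given in the sources. No further normalisation or filter was applied. Of 22810 probe sets, 64 controls were set aside and 22746 tested. The probe annotation, with symbols updated through RefSeq genes (TAIR10.1), paired 13513 probe sets with a single gene. Gene symbols, synonyms, locus tags and gene types were also taken from that table. Of its chromosome positions only the order of the genes was used, since the build behind the array is unnamed.

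Groups were compared with limma 3.58.1 in R 4.3.3, with a mean per group over all 15 arrays (10 residual and 3.09 prior degrees of freedom), 7 contrasts, 2-sided tests and Benjamini-Hochberg adjustment over all probe sets. The code was tested on simulated data. Errors after ± are standard errors unless SD is written. Members called by at least 1 on the log2 scale are given with every array, as are GSTU16, CYP71B5, CYP71B36 and CYP59, chosen after their values were seen. Members and lists were chosen with earlier results of these data known. Deviations of equally numbered wildtype and uvr8-1 arrays correlated with r between 0.10 and 0.68 over 18 pairs, but no label says that a number marks a shared batch. Those of equally numbered hy5-1 and wildtype arrays under UV-B correlated with r from 0.00 to 0.12. Alternatives were an intensity trend, the compared groups only, replicate number as a block, leaving out each array, leaving out the dimmest 40% of probe sets, median centring, quantile normalisation, the 3' minus 5' index as a covariate, and the mean of a gene's probe sets. Precision is limited by the number of arrays, 3 in each group. Figures were drawn with matplotlib 3.10.9.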

Additional observations from a re-analysis of the deposited data

Results flagged for a closer look

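GSTU28 stood out because its UV-B response differed between the genotypes by a test of that difference: the response of uvr8-1 minus that of wildtype was −1.94 ± 0.31 (limma, adjusted p = 0.00692). The values behind it were 4.19 ± 0.32 under UV-B and 4.02 ± 0.14 in white light in uvr8-1, and 5.97 ± 0.37 under UV-B and 3.86 ± 0.28 in white light in wildtype (SD, n = 3 each). With each of the 12 arrays left out in turn it stayed called, at values between −2.13 and −1.73 over all alternatives.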

How the results depend on the processing

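No called difference of a member turned its sign under any alternative, and 22 of the 48 called differences stayed called in all of their fits. The fit with the mean of a gene's probe sets was no test of them, since each of the 38 genes has only 1 probe set of its own. Scaling moved the median difference of all probe sets by at most 0.0347, but it changed some calls. Quantile normalisation ended the wildtype UV-B calls of CYP71B22 (adjusted p = 0.0512) and CYP71B29 (adjusted p = 0.0901). In uvr8-1 it ended those of GSTU21 (adjusted p = 0.0553) and CYP71B34 (adjusted p = 0.0639). Median centring ended the wildtype call of CYP71B29 (adjusted p = 0.0724). With each array left out in turn, the counts ranged as follows. In wildtype, genes that rose numbered 6 to 8 and genes that fell 4 to 7; the falls numbered 5 without white light replicate 2, 4 without white light replicate 3 and 4 without UV-B replicate 3. In uvr8-1 they numbered 6 to 7 and 5 to 8, with 5 falls without UV-B replicate 2 or 3. For the interaction 0 to 1 were higher and 1 lower. For uvr8-1 against wildtype under UV-B 1 to 2 were higher and 1 to 3 lower, for hy5-1 against wildtype 1 to 2 and 1 to 4, and for hy5-1 against uvr8-1 1 to 2 and 3 to 4. In a fit of the compared groups only, 4 fell in wildtype, 0 were higher and 1 lower in uvr8-1 than in wildtype under UV-B, 1 was higher in hy5-1 than in wildtype and 2 were lower in hy5-1 than in uvr8-1. Without the dimmest 40% of probe sets, 5 rose in uvr8-1, 1 was higher in uvr8-1 than in wildtype under UV-B, 1 was higher in hy5-1 than in wildtype, and 1 was higher and 2 lower in hy5-1 than in uvr8-1, since dim members were not tested. With the 3' minus 5' index as a covariate, 1 was lower in uvr8-1 than in wildtype under UV-B, and in both hy5-1 comparisons 0 were higher and 0 lower. Over all probe sets that fit called 0 higher and 3 lower in hy5-1 than in wildtype, and 7 and 2 than in uvr8-1. The cause was not tested. With replicate number as a block, 8 rose and 7 fell in wildtype, 8 and 8 in uvr8-1, and 3 were higher and 2 lower in uvr8-1 than in wildtype under UV-B; apart from GSTU25 and CYP71B29 above, the block moved no call of a member between wildtype and uvr8-1. Under UV-B, equally numbered arrays of hy5-1 and the other genotypes correlated with r of at most 0.12. With the block, 3 were higher and 4 lower in hy5-1 than in wildtype. There GSTU23 (adjusted p = 0.0393) and GSTU18 (adjusted p = 0.0398) gained calls. Against uvr8-1, 3 were higher and 4 lower in hy5-1, and CYP71B28 (adjusted p = 0.0477) gained a call. Dimness of 14 of the 38 genes in all groups limits what could be seen of them.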
